A study of Mus musculus with 2 samples.

Results

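Transcripts of 7 genes for sugar-binding and cell-wall-cleaving proteins were examined: the galectin genes Lgals1, Lgals3, Lgals8 and Lgals9, the galectin-binding protein gene Lgals3bp, and the lysozyme genes Lyz1 and Lyz2. They were taken by symbol from the GENCODE M21 annotation, by a rule that used no measured value, but were chosen with earlier results of these data known. They are 7 of the 55536 annotated genes, with 29 annotated transcripts between them. All 7 were found in the gene table and in both transcript tables of both libraries. The cells were macrophages derived from bone marrow of C57BL/6J mice, given lipid A, the active part of bacterial endotoxin, at 100 ng/ml for 0 minutes, so no time under stimulation had passed. Total RNA of their chromatin fraction was sequenced after ribosomal RNA was depleted, in 2 libraries of 1 group, with 250 ng of RNA for replicate 1 and 500 ng for replicate 2. Sex and age were not collected, and both libraries have the same donor entry, so the spread between them may be technical. With 1 group there was no condition to compare and no p-value is given.

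Galectins are small proteins that bind sugars ending in galactose. They are made in the cytosol and leave the cell by a route that does not use a signal peptide, and outside the cell they cross-link glycoproteins. Inside the cell, galectin-3, galectin-8 and galectin-9 gather on lysosomes and phagosomes whose membranes are torn, where luminal sugars become exposed. Lysozymes cut the peptidoglycan of bacterial walls. The mouse has a pair of adjacent lysozyme genes, of which Lyz2 is the form of macrophages and other myeloid cells and Lyz1 that of Paneth cells in the gut.

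The gene tables held 10970767 expected counts in replicate 1 and 14207280 in replicate 2, of which the 7 genes had 0.058% and 0.065%. The second transcript tables held 1.75 and 1.74 times as many counts. All 7 macrophage markers, which bear on the labelled cell type, were at 1 TPM (transcript abundance corrected for length) or more in both libraries and summed to 530.3 and 447 TPM. None of 8 neutrophil markers was (summed level 1.98 and 0.82 TPM), with Ly6g, Elane, Mpo and Camp at 0 counts in the gene table. Mmp8 had 11 and 21 counts there, Ngp 4 and 3, S100a9 2 and 0, and S100a8 1 and 0. The second transcript table listed Mpo at 1.15 and 1.64 TPM, and Camp at 8 and 12 counts. All 6 Paneth and epithelial markers had 0 counts in the gene table, though Epcam had 10 and 7 in the second transcript table. Of 4 dendritic cell markers, 2 passed, Zbtb46 and Batf3, at 1.57 ± 0.141 and 5.33 ± 1.82 TPM (SD, n = 2). Flt3 had 0 counts in both libraries in the gene table and 48.2 and 71.3 in the second transcript table. Xcr1 had 2 and 0 against 58.7 and 87.6. Of all nuclear protein-coding genes, 46.7% passed in the gene table. In such bulk samples fewer cells of a type and less RNA per cell cannot be told apart.

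Lgals3, Lyz2 and Lgals8 were the abundant members in the gene table, and Lyz1 was under 1 TPM. Lgals3 had 221 TPM in replicate 1 and 227 in replicate 2, Lyz2 had 191 and 161, and Lgals8 had 103 and 117. Among the 22015 nuclear protein-coding genes, these means ranked 105, 149 and 339. Next came Lgals3bp at 43.1 and 42.0 TPM, Lgals9 at 20.3 and 24.6, and Lgals1 at 16.9 and 13.1, ranked 1479, 2916 and 4115. Lyz1 had 0.38 and 0.44 TPM. The order was the same in both libraries, and no pair of neighbours in it overlapped between libraries. At the threshold of 1 TPM in both libraries, 6 of 7 members were detected, beside 46.7% of nuclear protein-coding genes. The same 3 genes led the second transcript table, where Lgals8 and Lyz2 overlapped, as did Lgals3bp, Lgals1 and Lgals9.

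**Figure D1:**
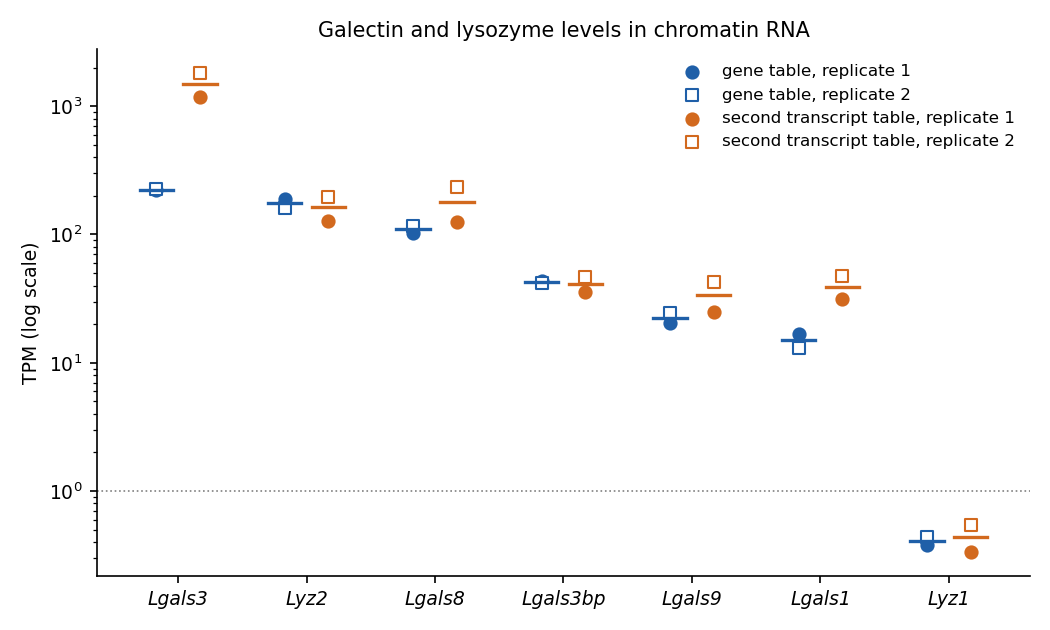
Level of each gene in TPM on a log axis, from the gene table (blue) and from the second transcript table summed over transcripts (orange). Circles are replicate 1, squares are replicate 2, bars are means of the 2 libraries, and the dotted line is 1 TPM. Lgals3 stood at 221 to 227 TPM in one and 1181 to 1807 TPM in the other, while Lyz1 lay below the line in both.

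Lyz2 and Lyz1 lie head to tail on the minus strand of chromosome 10, 5475 bases apart. On mm10, Lyz2 (ENSMUSG00000069516.8) spans 117277331 to 117282321 and Lyz1 (ENSMUSG00000069515.6) spans 117287797 to 117292868. Each has 1 annotated transcript of 4 exons. Their coding sequences were identical at 422 of 444 bases, and the translated proteins of 148 residues differed at 12. Exon 3 was identical, exon 2 differed at 6 of 165 bases, and exon 1 had the lowest share of matched columns at 70.7%. That share counts the unequal annotated lengths of exon 1, 166 bases in Lyz1 and 215 in Lyz2. Of these, 152 bases were matched. Exon 2, all of it coding, is shown from GENCODE M21 because it holds the kind of difference by which reads can be told apart. It lies at chr10:117291029-117291193 for Lyz1 and chr10:117280641-117280805 for Lyz2, both on the minus strand, and capitals mark the bases that differ.
Lyz1 exon 2: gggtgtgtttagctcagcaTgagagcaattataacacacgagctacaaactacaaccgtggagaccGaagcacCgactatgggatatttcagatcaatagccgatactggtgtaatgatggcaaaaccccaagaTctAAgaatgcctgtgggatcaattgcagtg
Lyz2 exon 2: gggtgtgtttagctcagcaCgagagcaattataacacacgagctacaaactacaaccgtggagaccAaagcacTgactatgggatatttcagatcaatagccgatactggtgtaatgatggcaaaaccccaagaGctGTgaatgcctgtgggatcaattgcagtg

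Nearly all lysozyme RNA was given to Lyz2. Its expected counts were 2124 in replicate 1 and 2684 in replicate 2, while those of Lyz1 were 4 and 7, with exact Poisson intervals of 1.09 to 10.2 and 2.81 to 14.4. Lyz2 thus held 99.8% and 99.7% of the counts on the pair. The Lyz1 share was 0.188% in replicate 1 (95% Clopper-Pearson interval 0.0512% to 0.481%) and 0.26% in replicate 2 (0.105% to 0.535%), and these intervals overlapped. On the length-normalised scale Lyz2 stood 502 and 367 times above Lyz1. The second transcript table had 8.52 and 13.3 counts for Lyz1 beside 3409 and 5034 for Lyz2, a Lyz1 share of 0.249% and 0.263%. Both kinds of table thus gave Lyz1 under 1 count in 100 of the pair.

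Much of each lysozyme transcript is found in the other. Of the distinct 31-base words of the Lyz1 transcript, 422 of 1233 (34.2%) also occurred in Lyz2, and the same 422 were 32.8% of the words of Lyz2. No other gene's transcripts held any of them. They fell into 15 runs, the longest an identical stretch of 118 bases at positions 306 to 423 of the Lyz1 transcript. At 50, 75 and 100 bases the shared part of Lyz1 fell to 16.1%, 6.22% and 2.06%. In the authors' deposited table, the posterior SD of the count, which reflects reads that fit several places, was 0.06 and 0.04 counts for Lyz1 and the same for Lyz2. Which of the few Lyz1 counts came from reads that also fit Lyz2 was not tested.

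**Figure D2:**
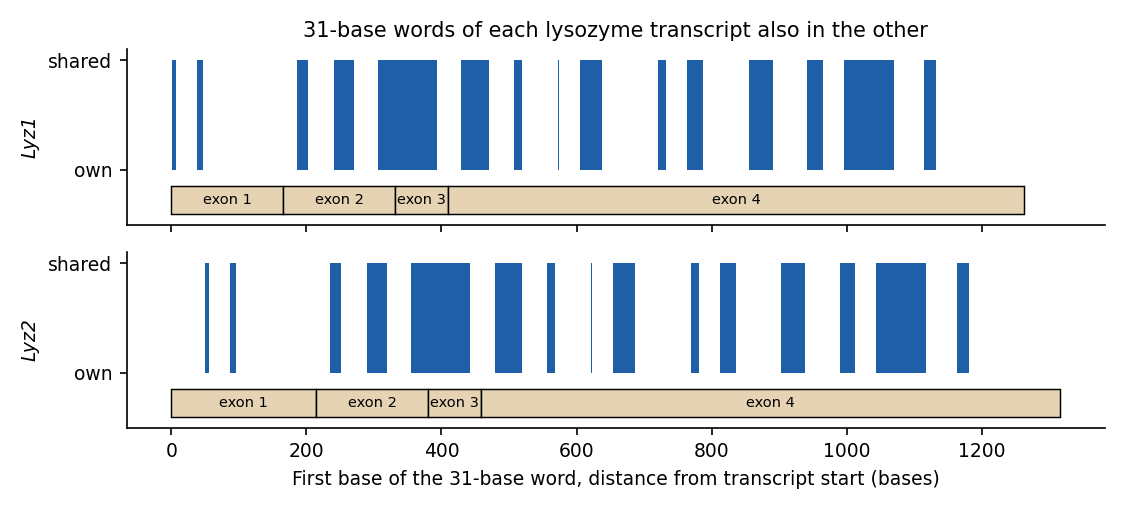
Positions along the Lyz1 (top) and Lyz2 (bottom) transcripts, in bases from the transcript start, at which a 31-base word begins that also occurs in the other transcript (blue), above the 4 exons (boxes). The 422 shared words fall in 15 runs, few of them in exon 1 and the longest covering exon 3.

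The DNA upstream of both lysozyme genes is also related. The windows below run from 250 to 50 bases before the RefSeq start (GRCm38.p6, minus strand), at chr10:117292918-117293118 for Lyz1 and chr10:117282322-117282522 for Lyz2. They are shown because genes with such unlike levels share most of this sequence. The GENCODE start of Lyz2, at 117282321, directly adjoins its window, while that of Lyz1, at 117292868, does not. Positions here and in the motif search are counted from the RefSeq start. In a gapped alignment 151 of 203 columns held the same base (74.4%), and capitals mark bases without a match. The part nearer the RefSeq start was the more alike: 85.1% of Lyz1 bases from −150 to −50 were matched, beside 65.0% from −250 to −151.
Lyz1 upstream: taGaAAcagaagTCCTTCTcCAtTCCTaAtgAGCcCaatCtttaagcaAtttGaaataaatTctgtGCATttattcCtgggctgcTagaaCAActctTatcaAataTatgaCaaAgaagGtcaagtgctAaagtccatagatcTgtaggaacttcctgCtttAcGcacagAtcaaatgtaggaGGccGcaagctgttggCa
Lyz2 upstream: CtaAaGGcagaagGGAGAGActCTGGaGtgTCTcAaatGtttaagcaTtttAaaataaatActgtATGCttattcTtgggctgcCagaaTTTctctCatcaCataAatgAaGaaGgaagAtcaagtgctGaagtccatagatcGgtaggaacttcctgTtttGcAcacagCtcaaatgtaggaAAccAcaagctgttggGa

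Short motifs of factors known in myeloid cells, and the TATA box, were sought on both strands of the RefSeq windows of 300 bases. These ran from 250 before to 50 after the start. There were 32851 such windows, with an entry for 6 of the 7 genes. The motifs were chosen with the promoters in view. AGGAAG was added after it was noticed in them, so its matches there are no independent finding. The ETS-type core AGGAAG was in 35.4% of all windows, and in those of Lyz1 (at −99), Lyz2 (at −137 and −99) and Lgals9. The core GAGGAA, which overlaps AGGAAG where a G follows, was in 28.3% of windows and in those of Lgals3bp and Lgals9. The C/EBP-type TTNNGNAA was in 40.7%, and in Lyz1 (at −209), Lyz2 (at −55), Lgals3bp and Lgals8. The AP-1 letters TGANTCA (7.81%) and the TATA-box letters TATAAA (13.6%) were in none of the 6 windows. These matches only describe the letters in the windows.

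Lgals3, the gene of galectin-3, which has a long proline- and glycine-rich tail before its sugar-binding domain, was the highest member and the one on which the tables disagreed most in TPM. It lies on the plus strand of chromosome 14, 47367751 to 47386160 (ENSMUSG00000050335.17), with 6 annotated transcripts. Its gene-table counts were 2069 and 3174. The second transcript table gave 6478 and 9569 counts, and 1181 and 1807 TPM, which made it the most abundant of 21938 nuclear protein-coding genes there. The gap came largely from 1 short transcript, Lgals3-206, which is 210 bases long, below the lower end of the labelled fragment range of 250 to 400 bases. It had 0 counts in both libraries in the first transcript table, and 1432 and 2106 counts in the second, where its effective length of 64.1 and 63.3 bases turned them into 939 and 1441 TPM. This transcript thus made up 22.1% and 22.0% of the gene's counts there, but 79.5% and 79.8% of its TPM.

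The coding part of Lgals3-206 is given because it shows how little of that transcript is its own. It has 98 bases, in exon 2 (chr14:47379527-47379544) and exon 3 (chr14:47380053-47380132), from GENCODE M21, and capitals mark exon 3.
Lgals3-206 coding part: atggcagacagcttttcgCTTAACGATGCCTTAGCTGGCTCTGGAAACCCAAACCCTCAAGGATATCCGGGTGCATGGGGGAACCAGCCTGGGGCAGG
All 98 bases also occur in one run in each of the other 5 Lgals3 transcripts. Of the 180 distinct 31-base words of the whole transcript, 26 were in no other Lgals3 transcript. None of the 1915 words of Lgals3 was in a transcript of another gene. With Lgals3-206 taken out of the sum, the second table gave 242 and 366 TPM, which is 1.09 and 1.61 times the gene table. As log2 ratios these were 0.13 and 0.69, beside medians of 0.01 and 0.66 over 12406 protein-coding genes. In counts a gap remained, at 2.44 and 2.35 times, beside 1.75 and 1.74 for the table totals. Nearly all of the remaining difference was on Lgals3-203, the form with most counts in both, with 1269 and 1790 counts in the first transcript table and 4228 and 6059 in the second.

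**Figure D3:**
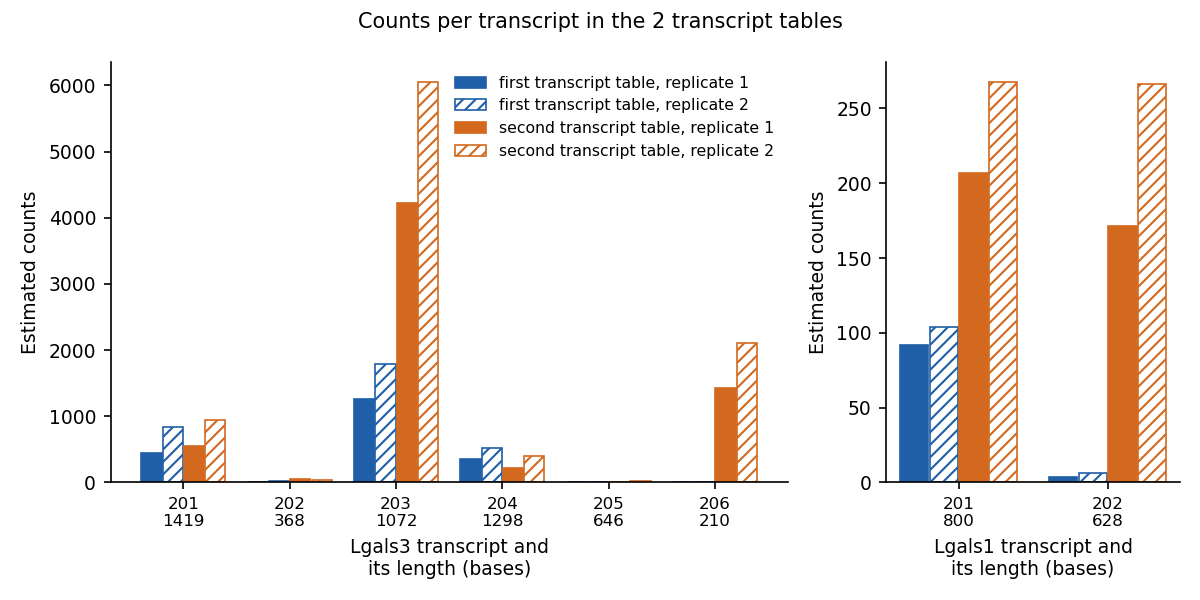
Estimated counts of each annotated Lgals3 transcript (left) and Lgals1 transcript (right) in the first (blue) and second (orange) transcript table, with filled bars for replicate 1 and hatched bars for replicate 2. Lgals3-206 and Lgals1-202 hold many counts in the second table (1432 and 2106, and 171 and 266) and 0 or few in the first.

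Lgals1, the gene of galectin-1, a galectin that acts as a dimer, was the lowest of the 4 galectin genes in the gene table, though not in the second transcript table. It lies on chromosome 15, 78926725 to 78930465, plus strand (ENSMUSG00000068220.6). Its gene table counts were 96 and 110, and 378 and 534 in the second transcript table, which is 3.94 and 4.85 times as many and the largest such ratio among the members. Of its 2 transcripts, Lgals1-202 carries an added exon of 103 bases and is annotated as a target of nonsense-mediated decay, the pathway that removes RNA with an early stop codon. It took 4.1% and 5.78% of the gene's counts in the first transcript table and 45.3% and 49.8% in the second. Counts on the main form Lgals1-201 also differed, at 92.1 and 104 against 207 and 268. No 31-base word of Lgals1 was in another gene.

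Lgals8, the gene of galectin-8, which joins a pair of sugar-binding domains by a linker, lies on the minus strand of chromosome 13, 12439415 to 12464944 (ENSMUSG00000057554.13). Its counts were 1337 and 2325. Transcripts annotated with a retained intron took 64.9% and 64.4% of its TPM in the first transcript table, and 61.8% and 58.8% in the second. Over 5042 protein-coding genes with such a transcript and at least 100 counts in each library, the median in the first table was 49.3% and 48.5% and the upper quartile 64.3% and 63.8%. Lgals8 lay just above that quartile in both libraries there, and just below it in the second table (63.0% and 62.4%). By counts in place of TPM, the retained-intron share of Lgals8 was 56.3% and 56.5% in the first table, and 60.6% and 57.8% in the second. The form with most counts was Lgals8-204, with a retained intron, at 49.4% and 49.8% in the first table and 39.9% and 36.6% in the second.

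Lgals8 was the galectin whose sequence other genes shared. Of its 3764 distinct 31-base words, 208 (5.53%) occurred elsewhere, in transcripts of 2701 other genes between them. At 50 bases 2 other genes shared any. Of the 208 words, 126 were in Heatr1, a gene of ribosome production on the opposite strand whose span overlaps that of Lgals8 by 875 bases. Heatr1 had 937 and 1283 counts, or 27.2 and 20.7 TPM. Without knowing if strand was kept, reads of the overlap cannot be told apart. At 100 bases the shared part was 1.47%, all of it with Heatr1.

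Lgals9, the gene of galectin-9, another galectin with a pair of sugar-binding domains, lies on the minus strand of chromosome 11, 78962974 to 78984946 (ENSMUSG00000001123.15). Its counts were 202 and 341, and 582 and 914 in the second transcript table. In the first transcript table Lgals9-202 held 78.7% and 66.6% of counts, and the retained-intron form Lgals9-204 held 21.3% and 27.6%. In TPM that retained-intron share was 40.8% and 49.5%; the first lay under the median of the same 5042 genes and the second above it. The nearest gene, Nos2, the inducible nitric oxide synthase of activated macrophages, had 4 counts in each library.

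Lgals3bp encodes a secreted scavenger-receptor-type glycoprotein that binds galectins. It lies on the minus strand of chromosome 11, 118392751 to 118402092 (ENSMUSG00000033880.11). Its counts were 530 and 595. At 35.4 and 46.2 TPM in the second transcript table, it overlapped its gene-table level of 43.1 and 42.0. Lgals3bp-201 held 84.7% and 76.6% of its counts in the first table. Lgals3bp-205 was less steady, with 9.96 and 62.4 counts there and 0 and 4.62 in the second. No transcript of Lgals3bp, or of Lgals1, Lgals3 or either lysozyme gene, is annotated with a retained intron, so the tables could show none.

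Across the members, the tables differed by at least 2-fold in TPM in both libraries for Lgals3 only, on log2(TPM + 0.1). Its log2 ratio of second table over gene table was 2.42 and 2.99. Among 12406 protein-coding genes at 1 TPM in either table, 20.1% were at least 2-fold above in both libraries and 0.137% at least 2-fold below, so 1 of the 6 members tested is near that background. The ratios of Lgals1 were 0.88 and 1.84, those of Lgals8 0.28 and 1.01, and those of Lgals9 0.29 and 0.78. Lgals3bp (−0.28 and 0.14) and Lyz2 (−0.57 and 0.29) changed sign between libraries. The median of all tested genes was itself 0.01 in replicate 1 and 0.66 in replicate 2, so replicate 2 was shifted as a whole.

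Rescaling TPM to protein-coding genes brought those medians to 0.06 and 0.07. Relative to that scale Lgals3 stayed at 2.47 and 2.40 and was the 1 member past 2-fold (background 19.1%), and Lgals1 had 0.94 and 1.25. When counts were compared as shares of the table total, a different gene passed: Lgals1 at 1.16 and 1.47, with Lgals3 at 0.84 and 0.79 (background 18.9%). The same exchange was seen with transcripts under 250 bases left out of both tables, a choice made after seeing the data, with Lgals1 at 1.22 and 1.56 and Lgals3 at 0.46 and 0.41 (background 22.4%). Such short transcripts took 53.5% and 36.9% of all TPM in the second table and 41.3% and 48.2% in the first. Which of Lgals3 and Lgals1 passed 2-fold thus depended on the scale.

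**Figure D4:**
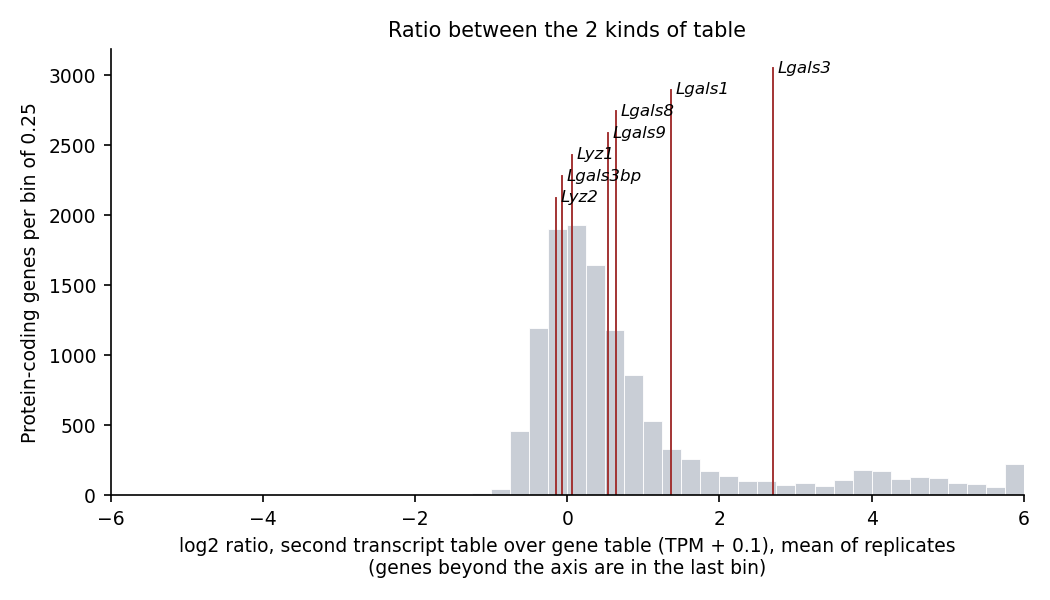
Number of protein-coding genes by the log2 ratio of second transcript table over gene table, log2(TPM + 0.1), averaged over the 2 libraries, in bins of 0.25 (grey), with the 7 genes marked by red lines. Lgals3 lies farthest to the right, with 2.42 and 2.99 in the 2 libraries, and Lyz1, under 1 TPM in both tables, is marked although it was not among the 12406 genes counted.

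The libraries were then compared with each other. On counts scaled by edgeR's TMM factors, the log2 ratio of replicate 2 over replicate 1 was 0.12 for Lgals3, 0.30 for Lgals8, 0.25 for Lgals9, −0.16 for Lyz2, −0.30 for Lgals1 and −0.33 for Lgals3bp. None of these 6 members was over 1.5-fold apart, which is near the background of 3.38% of the 10984 genes whose counts averaged 50 or more, among which the median absolute log2 ratio was 0.14. All of the 6 but Lgals3 lay farther from 0 than that median. Lyz1, with a mean of 5.5 counts, was too low to be tested. In the second transcript table Lgals1 (0.02) and Lyz2 (0.08) had the other sign. Scaling by total counts moved the median of all genes from 0.01 to 0.14.

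For its level, Lyz1 had the widest interval of the 7 genes. In the authors' deposited table, the TPM interval of Lyz1 ran from 0.0982 to 0.793 in replicate 1, and that of Lgals3 from 192 to 218. In the authors' deposited table the TPM of Lyz2 lay above the upper bound of its own interval in both libraries, at 191 against 178 and 161 against 155. The TPM of Lgals3 did so too in the authors' deposited table, at 221 against 218 and 227 against 224. The TPM of the other 5 genes lay within their intervals in the authors' deposited table. For Lyz2 and Lgals3, the posterior mean TPM in the authors' deposited table did lie within the interval in both libraries. It was 170 and 149 for Lyz2, and 204 and 213 for Lgals3.

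The rest of both families was sparse, where 46.7% of nuclear protein-coding genes were detected. Of 6 other galectin-family genes in the annotation, Lgals4, a galectin best known from gut epithelium, was the 1 at 1 TPM or more, with 67 and 80 counts and 9.50 ± 0.742 TPM (SD, n = 2). In the gene table Lgals2, Lgals7 and Grifin had no count, and Lgals12 and Lgalsl were under the threshold. The second transcript table gave Lgals7 2 and 1 counts, and Lgals12 29.3 and 35.1 where the gene table had 0 and 1. Of 8 other lysozyme-family genes, Lyzl4 passed in the gene table at 2.17 ± 0.247 TPM, with 16 and 19 counts, and it overlaps Gm47097 on the same strand (46 and 57 counts) and the antisense gene Lyzl4os (3 and 0 counts). Lalba, Lyzl1, Lyzl6, Spaca3, Spaca5, Lyg1 and Lyg2 had no count there. Under 2 counts per library were listed for Lyzl6 and Spaca5 in the second transcript table. By counting error alone, a gene listed at 0 may have had up to 3 counts, which is 0.273 RPM (counts per 1000000 counts) in replicate 1 and 0.211 RPM in replicate 2.

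Genes for proteins that galectins bind or work with were counted too, on a list chosen with earlier results known. Of 9, 8 were at 1 TPM or more, beside 46.7% of nuclear protein-coding genes, with a median of 45.6 TPM. Highest were Lamp2 (99.5 ± 0.255 TPM) and Lamp1 (69.0 ± 2.13 TPM), heavily glycosylated proteins of the lysosome membrane, and Pdcd6ip (70.7 ± 5.03 TPM), whose product Alix takes part in membrane repair. The receptors were Cd44 (45.6 ± 5.01 TPM), the integrin gene Itgb1 (28.3 ± 0.361 TPM) and Havcr2 (4.30 ± 0.587 TPM), whose product TIM-3 is a reported partner of galectin-9. Tax1bp1 (53.2 ± 4.22 TPM), an autophagy receptor gene, and Trim16 (4.73 ± 0.955 TPM), a partner of galectin-3 in the removal of damaged lysosomes, were detected. Calcoco2, whose product is the autophagy receptor that galectin-8 recruits in human cells, had no count in the gene table and 2 and 1 in the second transcript table.

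All 7 listed genes of N-glycan building were detected, beside 46.7% of nuclear protein-coding genes, with a median of 12.3 TPM. The enzymes on this list build or modify the branched sugars to which galectins can bind. The branching enzyme genes Mgat1 (48.4 ± 3.51 TPM) and Mgat5 (37.3 ± 6.17 TPM) were the highest, followed by Mgat4b (25.6 ± 4.62 TPM), Mgat4a (9.23 ± 0.283 TPM) and Mgat2 (3.62 and 4.38 TPM in the 2 libraries). B4galt1, which adds galactose, stood at 9.16 ± 1.05 TPM. St6gal1, which caps galactose with sialic acid, stood at 12.3 ± 3.87 TPM. The corresponding median over the 7 galectin and lysozyme genes was 42.6 TPM.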

How the data were processed

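Chromatin RNA was measured in 2 libraries of 1 group. Notes supplied with the tables state that an alignment to GENCODE M21 transcripts (mm10) gave the gene table and first transcript table, while reads and an index of these transcripts gave the second. No tool, version or strand setting is named in the sources used here. In the expected counts, as deposited, a read that fits several places is divided among them. TPM, as deposited, divides counts by effective length, with a sum of 1000000 per table. The deposited percent of each gene on each isoform was not used, and shares were recomputed. The gene table matched the first transcript table summed by gene to within 0.04 counts.

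The members and lists were chosen with earlier results of these data known. A gene was called detected at 1 TPM in both libraries. All members are named. Of each family, partner and enzyme list, genes at 1 TPM are given with values and the others by name. Genes overlapping a member, or sharing most 31-base words with it, are also named. Expected counts were rounded to whole numbers, and edgeR 4.0.16 (TMM) and DESeq2 1.42.0 in R 4.3.3 gave scaling factors only. A pseudocount of 0.5 counts was added. Ratios between tables used 0.1 TPM. No test was run, since there is 1 group. Poisson and binomial intervals, and the limit set for a count of 0, hold counting error alone. They do not cover spread between libraries, or PCR copies if these were counted as separate reads. Python 3.11.15 and Biopython 1.88 were used for sequences. The ratio between libraries was tested on simulated counts that held Poisson noise alone, and the search for shared words on simulated sequences. Upstream windows were aligned with gaps (match 2, mismatch −1, gap opening −4, extension −1) after an ungapped comparison, with 51.2% of 201 positions the same, had been seen. The 5 motifs were chosen with the promoters in view, AGGAAG after it was noticed in them. Alternatives covered thresholds, pseudocounts, scalings, tables, word lengths and leaving out each library. Entries outside the annotation held 0.338% and 0.27% of gene table counts and were left out of scaling.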

Additional observations from a re-analysis of the deposited data

How the results depend on the processing

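The count of detected members (6), the count over 1.5-fold apart between replicates (0) and the Lyz2 share of the lysozyme counts (99.7% to 99.8%) did not move beyond their limits under any alternative run. The count of members at least 2-fold apart between the tables was 1, and became 2 at 1.5-fold (Lgals1 and Lgals3). With each library left out it ran from 1 to 3, the 3 being Lgals1, Lgals3 and Lgals8 in replicate 2 alone. In replicate 2 the median log2 ratio of all 12406 tested genes was 0.66 and the upper quartile 1.34, beside 1.01 for Lgals8. The share of all genes passing was not computed for these settings, so the counts of 2 and 3 are no result about the members. The main count also stayed at 1 for shares of counts and without transcripts under 250 bases, but the gene was then Lgals1 in place of Lgals3. Mean TPM moved by more than the SD of the libraries for 5 of 7 members in the second transcript table. No paired analysis was possible because there is 1 group. With 2 libraries the SD itself is uncertain, and 4 and 7 counts limit any statement on Lyz1.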
